A study of Mus musculus with 6 samples.

Results

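The genes described here are markers of the medial habenula, a small nucleus beside the third ventricle that lies against the thalamus and under the hippocampus. They were named as Gpr151, Chrna3, Chrnb3, Chrnb4, Pou4f1, Nwd2, Lrrc55, Wif1 and Gng8, and were chosen by the raw counts of these same 6 mice, to show markers that a single library can carry, although not each of them was high in that library. Of the 9 genes named, 8 were found by symbol among the 15423 genes of the count table. The lowest total of any gene there was 40 counts over the 6 mice, so genes with fewer counts have no row. Shares of all genes are taken over genes with a row. For Pou4f1, the POU-domain transcription factor gene of habenular neurons, no level was analysed here, and only its upstream sequence was searched for motifs. Because the counts of these mice chose the genes, their levels are given as a description, with no test.

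Neurons of the medial habenula receive input from the septum and project through the fasciculus retroflexus to the interpeduncular nucleus. Many of them release acetylcholine together with glutamate, and others contain tachykinin peptides. They are known for a very dense set of nicotinic acetylcholine receptors that contain the α3 and β4 subunits, which are scarce in most of the forebrain, and for their part in nicotine aversion and withdrawal.

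Poly(A) RNA was sequenced from 3 SD (short day) mice and 3 CTR (control) mice of the strain C57BL/6J. The SD mice were bred and raised under 8 h of light and 8 h of dark, with light of 100 lux, until day 42, and the CTR mice under 12 h of light and 12 h of dark. The labels number the SD mice 2, 5 and 6 and the CTR mice 1, 2 and 5. Litters are not named there, and errors and tests therefore cover no more than how these mice varied, which may be technical. The paper describes dissected hippocampi, whereas the extraction label speaks of cells and spheroids. The age at which tissue was taken is not given in the sources used here. Libraries held 25755316 to 34447082 counts in SD mice and 23300710 to 30035148 counts in CTR mice. Xist, the RNA of the inactive X chromosome in female cells, had 0 to 20 counts in SD mice and 2, 0 and 30044 counts in CTR mice 1, 2 and 5, whereas the Y-linked gene Ddx3y was at 2571 to 3090 counts in SD mice and at 1652, 1887 and 10 counts in the same CTR mice. CTR mouse 5, the library in which the habenular genes were high, was thus also the only one with female counts, and sex and library cannot be told apart in it. Levels are given as counts and as CPM, the usual depth-scaled counts, with library sizes adjusted by TMM, a factor that sets most genes level between libraries.

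All 8 genes were highest in CTR mouse 5, and 6 of them exceeded the next mouse by at least 2-fold in CPM. Of all 15423 genes, 0.104% were at least 2-fold higher in CTR mouse 5 than in any other mouse, and 17.8% were highest there at all. A lead of at least 2-fold in some mouse was found for 0.473% of genes, namely 0.11% in SD mouse 2, 0.00648% in SD mouse 5, 0.00648% in SD mouse 6, 0.156% in CTR mouse 1 and 0.0908% in CTR mouse 2. None of the 8 genes had its lead in those 5 mice. SD mouse 6 was second for 6 of the 8 genes, which held for 2.13% of all genes together with CTR mouse 5 in first place. The summed level of the 8 genes was 76.8, 78.5 and 91.5 CPM in SD mice 2, 5 and 6, against 84.5, 81.2 and 204 CPM in CTR mice 1, 2 and 5. CTR mouse 5 thus stood 2.51 times above the median of the other 5 mice. Most of that sum came from Nwd2 and Lrrc55. Without them the sum was 6.40, 5.18 and 10.6 CPM in SD mice 2, 5 and 6, against 3.77, 4.17 and 39.0 CPM in CTR mice 1, 2 and 5. In whole tissue, fewer cells of a type and less RNA per cell cannot be told apart.

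**Figure D1:**
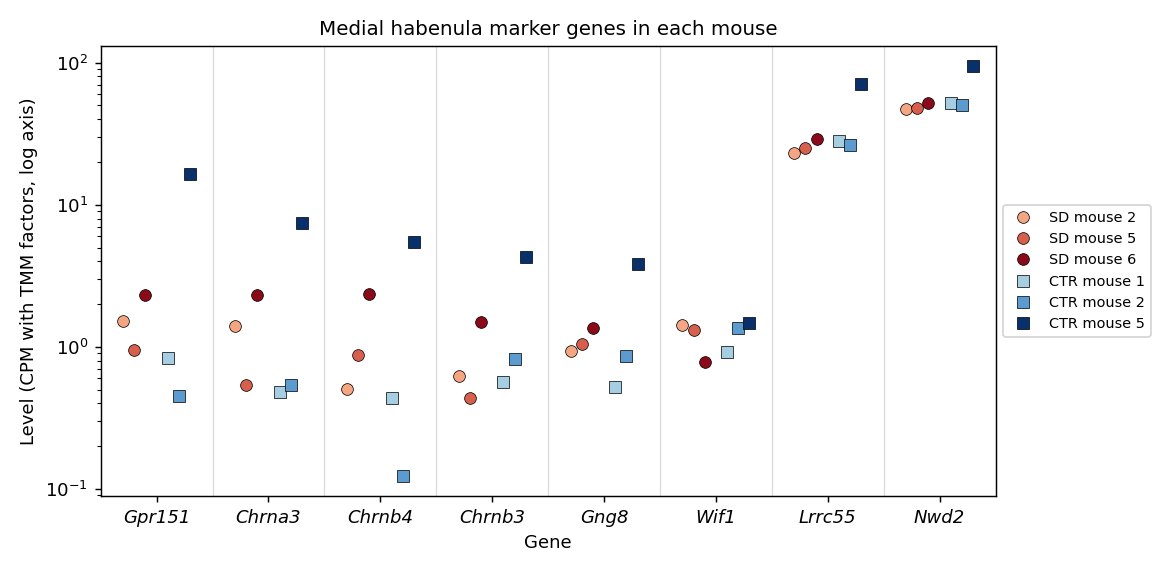
Level of each of the 8 marker genes in each mouse, in CPM on a log axis, with SD mice as circles on the left and CTR mice as squares on the right of each gene. CTR mouse 5 is the highest point for every gene, from 1.48 CPM for Wif1 to 94.2 CPM for Nwd2, and SD mouse 6 is the highest SD mouse for every gene except Wif1.

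The receptor gene that stood furthest apart was Gpr151, which encodes an orphan G protein-coupled receptor on the axons of habenular neurons. It is annotated on chromosome 18 of GRCm38 from 42577881 to 42579652 in GENCODE M21. Gpr151 had 39, 28 and 80 counts in SD mice 2, 5 and 6, against 19, 11 and 498 counts in CTR mice 1, 2 and 5. The level was 1.59 ± 0.687 CPM in SD mice and 5.88 ± 9.07 CPM in CTR mice (SD, n = 3 each), and the SD of the CTR mice exceeded their mean. CTR mouse 5 was 7.06 times above SD mouse 6, and the remaining CTR mice were the lowest of all 6. Among the 2749 genes that were highest in CTR mouse 5, Gpr151 ranked second by its fold over the next mouse, after Xist.

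The nicotinic subunit genes Chrna3 and Chrnb4 encode the α3 and β4 subunits, which together form the main receptor of the medial habenula. They are neighbours on the minus strand of chromosome 9 of GRCm38, Chrna3 from 55010111 to 55026562 and Chrnb4 from 55028154 to 55048779, with 1591 bases between them. Chrna5, the gene of the accessory α5 subunit, lies on the plus strand of the same locus from 54980880 to 55007779. Chrna3 had 36, 16 and 80 counts in SD mice 2, 5 and 6, against 11, 13 and 228 counts in CTR mice 1, 2 and 5. Chrnb4 had 13, 26 and 81 counts in SD mice 2, 5 and 6, against 10, 3 and 167 counts in CTR mice 1, 2 and 5. Both genes were highest in CTR mouse 5 and second in SD mouse 6, and the groups overlapped. Next came SD mouse 2 for Chrna3, at 1.40 CPM, and SD mouse 5 for Chrnb4, at 0.880 CPM. Chrna3 averaged 1.42 ± 0.887 CPM in SD mice and 2.84 ± 4.03 CPM in CTR mice, and Chrnb4 1.24 ± 0.972 CPM in SD mice and 2.02 ± 3.01 CPM in CTR mice (SD, n = 3 each). Chrnb4 overlaps an antisense gene model, which the authors' counting by strand keeps apart.

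Chrnb3, the gene of the β3 subunit, is on chromosome 8 of GRCm38 from 27368711 to 27399730. It had 16, 13 and 52 counts in SD mice 2, 5 and 6, against 13, 20 and 131 counts in CTR mice 1, 2 and 5. The level was 0.855 ± 0.570 CPM in SD mice and 1.90 ± 2.09 CPM in CTR mice (SD, n = 3 each). The order of the mice was that of Chrna3 and Chrnb4 at the top, with CTR mouse 5 first and SD mouse 6 second, while the other 4 mice held 62 counts in all.

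Upstream sequences are shown for the Chrna3 and Chrnb4 pair and for Gng8, a gene on another chromosome with the same order of CTR mouse 5 and SD mouse 6. They are the 250 bases before the RefSeq start of GRCm38.p6, 5′ to 3′ on the gene's own strand, and capitals mark the GC box, a binding motif of Sp1 family factors, with the letters GGGCGG or CCGCCC. The windows are chr9:55026563-55026812 (minus strand) for Chrna3, chr9:55048545-55048794 (minus strand) for Chrnb4 and chr7:16891536-16891785 (plus strand) for Gng8. For Chrnb4 this start lies within the gene as GENCODE M21 draws it.
Chrna3: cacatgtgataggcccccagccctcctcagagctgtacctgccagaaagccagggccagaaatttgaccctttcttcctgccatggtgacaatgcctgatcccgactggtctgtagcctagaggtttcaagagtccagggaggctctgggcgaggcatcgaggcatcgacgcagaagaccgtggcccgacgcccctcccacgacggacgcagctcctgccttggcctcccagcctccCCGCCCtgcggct
Chrnb4: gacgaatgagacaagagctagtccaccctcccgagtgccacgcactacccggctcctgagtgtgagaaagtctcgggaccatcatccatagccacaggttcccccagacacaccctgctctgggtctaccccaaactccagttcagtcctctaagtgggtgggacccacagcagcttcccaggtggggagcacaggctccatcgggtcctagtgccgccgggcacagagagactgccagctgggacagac
Gng8: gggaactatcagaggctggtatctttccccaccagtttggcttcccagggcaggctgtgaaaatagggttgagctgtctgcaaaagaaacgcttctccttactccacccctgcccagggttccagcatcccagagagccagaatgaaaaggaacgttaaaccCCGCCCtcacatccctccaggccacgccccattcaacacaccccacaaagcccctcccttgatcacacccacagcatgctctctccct
Chrna3 had 1 GC box, 13 bases before the start, Gng8 had 1, 88 bases before it, and Chrnb4 had none. Of 32851 windows of this length in the RefSeq table, 32.7% held a GC box on either strand. The letters AATTAAT or ATTAATT are the core of the motif bound by POU4F proteins. They were in none of the windows of the 7 named genes found in the RefSeq table, Pou4f1 among them, and in 2.46% of all windows. A match of letters describes the window and is not a binding site.

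Gng8 encodes a γ subunit of heterotrimeric G proteins and lies on chromosome 7 of GRCm38 from 16891786 to 16895436. It had 24, 31 and 47 counts in SD mice 2, 5 and 6, against 12, 21 and 117 counts in CTR mice 1, 2 and 5. The level was 1.11 ± 0.222 CPM in SD mice and 1.74 ± 1.82 CPM in CTR mice (SD, n = 3 each). CTR mouse 5 was 2.82 times above SD mouse 6, and the other mice lay between 0.526 and 1.05 CPM.

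Lrrc55 and Nwd2 differed from the genes above in that they were well expressed in every library. Lrrc55, on chromosome 2 of GRCm38 from 85162334 to 85197197, encodes a leucine-rich repeat protein that acts as an auxiliary subunit of BK potassium channels. It had 599, 742 and 1000 counts in SD mice 2, 5 and 6, against 647, 644 and 2148 counts in CTR mice 1, 2 and 5. In CPM the 5 mice other than CTR mouse 5 lay between 23.2 and 28.9, and CTR mouse 5 was at 70.5. Nwd2, on chromosome 5 from 63649102 to 63810546, encodes a NACHT and WD repeat domain protein. It had 1214, 1424 and 1793 counts in SD mice 2, 5 and 6, against 1195, 1223 and 2869 counts in CTR mice 1, 2 and 5. Its level was 47.1 to 52.4 CPM in the 5 other mice and 94.2 CPM in CTR mouse 5, so that SD mouse 6 did not stand out. Both genes overlap gene models on the opposite strand, and Nwd2 also a processed pseudogene on its own strand, to which reads could be split.

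Wif1, which encodes a secreted inhibitor of Wnt ligands, did not follow the others. The gene is on chromosome 10 of GRCm38 from 121033960 to 121100650. It had 37, 39 and 27 counts in SD mice 2, 5 and 6, against 21, 33 and 45 counts in CTR mice 1, 2 and 5. The level was 1.18 ± 0.349 CPM in SD mice and 1.25 ± 0.294 CPM in CTR mice (SD, n = 3 each). CTR mouse 5 exceeded SD mouse 2, the next mouse, by 1.03 times only, and SD mouse 6 was the lowest. In these libraries Wif1 therefore did not track the other 7 genes, whatever its use as a marker. Between pairs of those 7 genes, Pearson's r of log2 CPM had a median of 0.89 over the 6 mice. Without CTR mouse 5 the median was 0.52, with a range of -0.26 to 0.98, so their likeness leaned on that library.

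Levels of different genes were compared per kilobase of annotated exon. In the median of the 5 other mice, Nwd2 was at 4.84, Lrrc55 at 4.10, Gng8 at 0.612, Wif1 at 0.544, Gpr151 at 0.535, Chrnb4 at 0.136, Chrna3 at 0.103 and Chrnb3 at 0.0975 CPM per kb. Nwd2 and Lrrc55 did not overlap over these mice, at 4.52 to 5.02 and 3.59 to 4.47 CPM per kb, while each of the 5 later neighbours in this order overlapped, from Gng8 and Wif1 to Chrna3 and Chrnb3. In CTR mouse 5 the order was Lrrc55 at 10.9, Gpr151 at 9.23, Nwd2 at 9.04, Gng8 at 2.52, Chrnb4 at 1.47, Chrna3 at 1.42, Chrnb3 at 0.676 and Wif1 at 0.609 CPM per kb. Gpr151 thus reached the level per length of Nwd2 in CTR mouse 5 and was well under it in every other mouse. The level in CTR mouse 5 above the mean of the 4 mice other than it and SD mouse 6 was 8.70 CPM per kb for Gpr151, 6.91 for Lrrc55, 4.29 for Nwd2, 1.97 for Gng8, 1.34 for Chrnb4, 1.28 for Chrna3, 0.579 for Chrnb3 and 0.0901 for Wif1.

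CTR mouse 5 and SD mouse 6 were each set against the 4 remaining mice pooled, with 95% exact (Clopper-Pearson) intervals that cover counting error only. SD mouse 6 exceeded these 4 mice by 4.62 times for Chrnb4 (3.22 to 6.67), by 3.12 times for Chrna3 (2.25 to 4.33), by 2.49 times for Chrnb3 (1.69 to 3.65) and by 2.44 times for Gpr151 (1.79 to 3.32). For Nwd2 the ratio in SD mouse 6 was 1.05 (0.995 to 1.11) and for Lrrc55 1.13 (1.05 to 1.21). CTR mouse 5 exceeded the same mice by 17.3 times for Gpr151 (13.9 to 21.7), 10.8 times for Chrnb4 (7.87 to 15.04), 10.1 times for Chrna3 (7.75 to 13.3) and 7.10 times for Chrnb3 (5.21 to 9.77). The ratio was thus highest for Chrnb4 in SD mouse 6, where its interval overlapped those of Chrna3, Chrnb3 and Gpr151, and for Gpr151 in CTR mouse 5. SD mouse 6 was below CTR mouse 5 by 7.06 times for Gpr151 (5.57 to 9.06) and by 2.34 times for Chrnb4 (1.78 to 3.09), values of single libraries with no test. SD mouse 6, with 14 counts of Xist and 3090 of Ddx3y, did not have female counts.

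**Figure D2:**
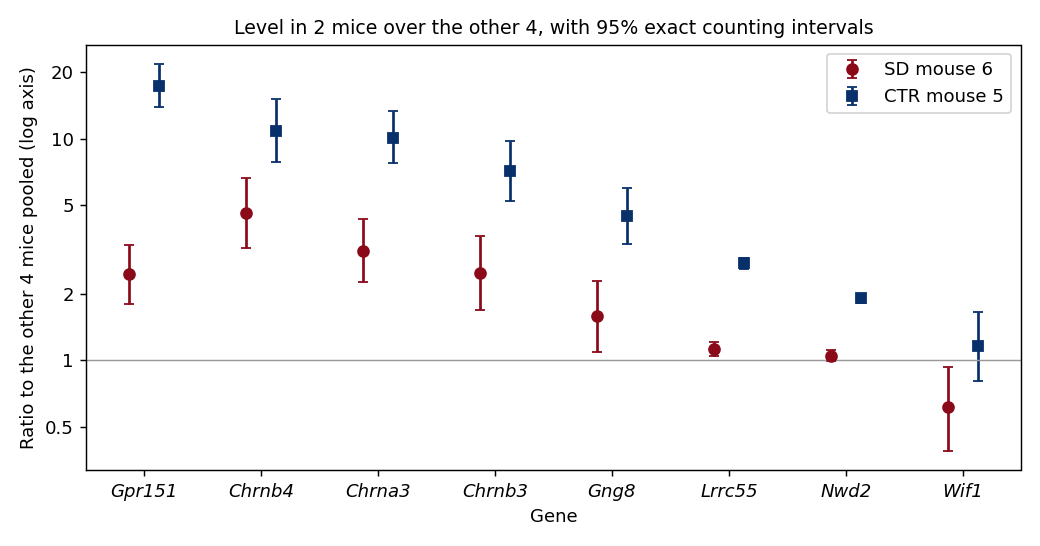
Ratio of SD mouse 6 (circles) and of CTR mouse 5 (squares) to the other 4 mice pooled, per gene on a log axis, with 95% exact counting intervals. In CTR mouse 5 the ratio is 17.3 for Gpr151 and 1.16 for Wif1, and in SD mouse 6 it is highest for Chrnb4 at 4.62 and under 1 for Wif1.

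The difference between the light cycles was fitted with the quasi-likelihood test of edgeR over 15345 genes, of which 2.98% were called, with p no larger than 0.05 before adjustment and a log2 fold change of 0.58 or more in size. Without the fold cutoff 8.32% had p under 0.05. Of the 8 habenular genes 1 was called, Lrrc55, which was lower in SD mice. Nothing is read from that count, nor from the signs and the median that follow, because the same counts chose the genes. All 8 passed the filter on low counts and had negative log2 fold changes, with a median of -0.71, against a median of 0.0015 over all genes. In none of them did the groups separate, which they did in 12.3% of all genes. The fitted log2 difference, SD minus CTR, was -1.90 for Gpr151 (standard error 1.01), -1.03 for Chrna3 (0.88) and -0.72 for Chrnb4 (0.95).

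The sign of most of these differences rested on CTR mouse 5. Without it 6 of the 8 genes had positive log2 fold changes and the median was 0.50. Chrnb4 then had 2.19 (standard error 0.75), Chrna3 1.48 (0.57), Gpr151 1.32 (0.45) and Gng8 0.68 (0.35). Chrnb3, at 0.32 (0.52), and Wif1, at 0.03 (0.35), were closer to 0 than their standard error. Wif1 was positive without SD mouse 6 as well, at 0.12. Chrnb4 averaged 1.24 CPM in SD mice and 0.281 CPM in CTR mice 1 and 2, Chrna3 1.42 CPM in SD mice and 0.509 CPM in these CTR mice, and Gpr151 1.59 CPM in SD mice and 0.643 CPM in these CTR mice. Lrrc55 and Nwd2 had -0.09 (standard error 0.12) and -0.07 (0.09) without CTR mouse 5, against -0.70 (0.32) and -0.42 (0.20) with all mice. Without SD mouse 6, but with CTR mouse 5 kept, the median of the 8 genes was -1.21. The SD means of Chrnb4, Chrna3 and Gpr151 leaned on SD mouse 6. Chrnb4 was at 2.34 CPM there, against 0.504 and 0.880 CPM in SD mice 2 and 5. Chrna3 was at 2.32 CPM, against 1.40 and 0.541 CPM, and Gpr151 at 2.32 CPM, against 1.51 and 0.947 CPM. No fit left out both SD mouse 6 and CTR mouse 5, and the same counts chose the genes.

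**Figure D3:**
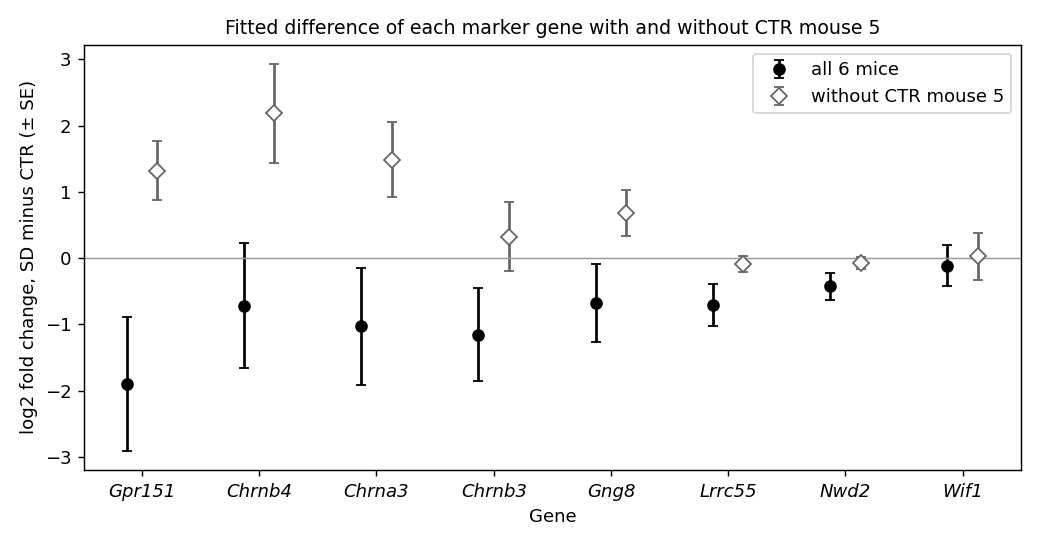
Fitted log2 fold change of each marker gene, SD minus CTR, with its standard error, for all 6 mice (filled circles) and without CTR mouse 5 (open diamonds). With all mice the 8 values are below 0, and without CTR mouse 5 they run up to 2.19 for Chrnb4 while Lrrc55 and Nwd2 lie near 0.

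Of 16 further genes listed for the medial habenula, 12 were in the table. Chat, Slc18a3, Chrna6 and Isl1 had no row there, and no level was analysed for them. Of the 12 genes, 6 were highest in CTR mouse 5, beside 17.8% of all genes. Tac2, Slc5a7 and Avil, 3 of the 6, were so by at least 2-fold, beside 0.104% of all genes. Gpr139 exceeded the next mouse by 1.88 times, and Calb2 and Htr5b by 1.06 times each. The list was made with earlier results of these data known, so nothing is read from these shares. Chrna5 is in this list and in that of the nicotinic subunits. Tac2, the precursor gene of neurokinin B, had 120, 116 and 159 counts in SD mice 2, 5 and 6, against 98, 94 and 470 counts in CTR mice 1, 2 and 5. Slc5a7, the high-affinity choline transporter gene of cholinergic neurons, had 58, 39 and 82 counts in SD mice 2, 5 and 6, against 35, 33 and 232 counts in CTR mice 1, 2 and 5. The third was Avil, the gene of the actin-binding protein advillin, with 8, 9 and 12 counts in SD mice 2, 5 and 6, against 10, 5 and 43 counts in CTR mice 1, 2 and 5, named after its values were seen. Tac2 and Slc5a7 were again highest in CTR mouse 5, but for Tac2 SD mouse 6 was level with SD mouse 2, at 4.60 and 4.66 CPM. The genes of highest mean in the list, Etv1, Nr4a2, Calb2 and Tac1, are transcribed in other forebrain neurons as well and exceeded the next mouse by at most 1.62 times in any library.

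Between the light cycles 2 of the 11 listed genes that could be tested were called, both lower in SD mice, where 0.88% of all genes were called lower and 2.1% higher. Tcf7l2, the gene of a Wnt-dependent transcription factor of thalamus and habenula, had 135, 109 and 154 counts in SD mice 2, 5 and 6, against 106, 455 and 364 counts in CTR mice 1, 2 and 5. Tcf7l2 differed by -1.41 on the log2 scale, SD minus CTR, with a standard error of 0.39 (edgeR adjusted p = 0.51), and CTR mouse 2 was the highest mouse and CTR mouse 1 lay among the SD mice. Gpr139, an orphan receptor gene of habenular neurons, had 39, 63 and 84 counts in SD mice 2, 5 and 6, against 56, 60 and 142 counts in CTR mice 1, 2 and 5. The log2 difference of Gpr139 was -0.66 with a standard error of 0.30 (edgeR adjusted p = 0.60). Its groups barely separated, with 2.43 CPM in SD mouse 6 and 2.45 CPM in CTR mouse 1, and groups separated in 12.3% of all genes. Without CTR mouse 5 the log2 difference of Gpr139 was -0.27 and no longer called. It was not called either without SD mouse 2, at -0.50, or without SD mouse 5, at -0.69. Without a term for mouse number, no gene of the list passed an adjusted p under 0.05 over all 6 mice in edgeR or in DESeq2, and 2 had an unadjusted p under 0.05 in either tool. The median log2 fold change of the list was -0.42. Calls at these cutoffs were not particular to the habenular list. In the same fit 9 of 15 genes listed for thalamic neurons were called lower in SD mice. Of 15 genes listed for the choroid plexus 14 were called higher.

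**Figure D4:**
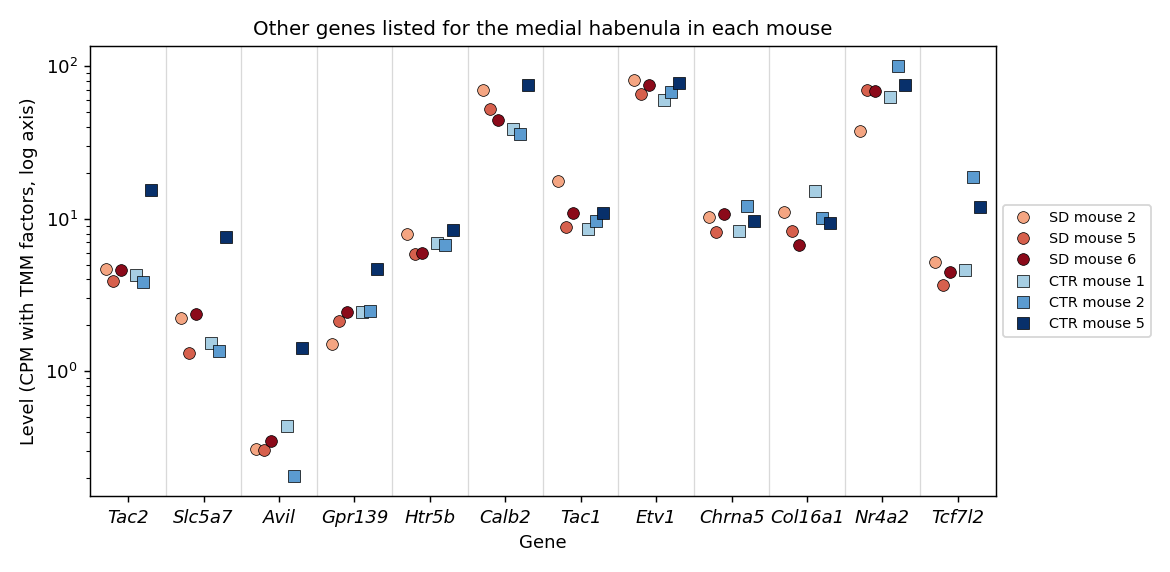
Level of the 12 other genes listed for the medial habenula in each mouse, in CPM on a log axis, with SD mice as circles on the left and CTR mice as squares on the right. CTR mouse 5 stands apart for Tac2 at 15.4 CPM, Slc5a7 at 7.62 CPM and Avil at 1.41 CPM, whereas for Tcf7l2 CTR mouse 2 is highest at 18.8 CPM.

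The rest of the nicotinic receptor family did not share the pattern of Chrna3, Chrnb3 and Chrnb4. Of 13 other subunit genes 7 were in the table, and none of these was highest in CTR mouse 5. Their summed level was 142, 134 and 144 CPM in SD mice 2, 5 and 6, against 158, 175 and 146 CPM in CTR mice 1, 2 and 5, whereas the 3 marker subunits summed to 2.52, 1.86 and 6.16 CPM in SD mice and 1.49, 1.48 and 17.3 CPM in CTR mice. Chrna5, which shares the locus of Chrna3 and Chrnb4, had 265, 241 and 370 counts in SD mice 2, 5 and 6, against 191, 294 and 294 counts in CTR mice 1, 2 and 5. It was thus not raised in CTR mouse 5.

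None of the 7 subunit genes was called between the light cycles, and 1, Chrna4, had an unadjusted p under 0.05 in edgeR and in DESeq2. Chrna4, which encodes the α4 subunit of the most common receptor of the forebrain, was 27.6 ± 3.03 CPM in SD mice and 40.5 ± 10.6 CPM in CTR mice (SD, n = 3 each). Chrna4 differed by -0.55 on the log2 scale with a standard error of 0.17 (edgeR adjusted p = 0.51), just under the cutoff on the fold, and it was past the cutoffs at -0.70 without CTR mouse 5, -0.62 without SD mouse 5 and -0.61 without CTR mouse 1. Chrna2 was called, at -1.33, without SD mouse 2. Chrnb2, the gene of its partner subunit β2, was 73.6 ± 3.25 CPM in SD mice and 82.1 ± 4.15 CPM in CTR mice, and Chrna7, of the homomeric α7 receptor, was 27.3 ± 3.30 CPM in SD mice and 25.1 ± 0.773 CPM in CTR mice (SD, n = 3 each).

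The genes most like the 8 markers over the 6 mice were ranked by Pearson's r of log2 CPM with the mean standardised level of the markers, among 462 genes with at least 1 CPM on average and an SD of at least 0.5. The 10 highest were Tac2, Slc5a7, Sncg, Xist, Syt9, Nhlh2, Klhl1, Asb2, Gabrr2 and Zic4, with r from 0.98 for Tac2 to 0.81 for Zic4. These 6 points share the one high library, and r is a description. Without CTR mouse 5 it was 0.99 for Sncg, the γ-synuclein gene, 0.89 for Klhl1 and 0.87 for Syt9, a synaptotagmin gene, and -0.21 for Nhlh2, -0.16 for Asb2 and -0.27 for Gabrr2. Sncg had 99, 94 and 157 counts in SD mice 2, 5 and 6, against 58, 70 and 226 counts in CTR mice 1, 2 and 5, and so followed the markers in SD mouse 6 as well. Nhlh2, a basic helix-loop-helix factor gene, had 72, 91 and 80 counts in SD mice 2, 5 and 6, against 61, 55 and 219 counts in CTR mice 1, 2 and 5, and was raised in CTR mouse 5 alone. Xist and the markers shared their highest mouse, and Zic4 is also in the list of thalamic genes.

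Markers of other tissue beside the hippocampus were mostly highest in other mice. Genes of thalamic neurons, the tissue that borders the habenula, summed to 239, 208 and 182 CPM in SD mice 2, 5 and 6, against 208, 428 and 267 CPM in CTR mice 1, 2 and 5, and 12 of 15 were highest in CTR mouse 2. In that mouse Gpr151 had 11 counts and Chrnb4 3, the lowest of all mice for both, whereas Chrnb3, at 0.825 CPM, was above SD mice 2 and 5 and CTR mouse 1, and the other 5 markers were lowest in other mice. The other 3 thalamic genes were highest in CTR mouse 5. Slc17a6, the vesicular glutamate transporter gene that thalamic and habenular neurons share, was high in both these mice, with 46.3, 41.9 and 28.3 CPM in SD mice 2, 5 and 6, against 35.0, 75.2 and 71.8 CPM in CTR mice 1, 2 and 5. Genes of the choroid plexus summed to 4061, 11394 and 11279 CPM in SD mice 2, 5 and 6, against 2814, 427 and 4740 CPM in CTR mice 1, 2 and 5. They were thus about as high in SD mouse 5 as in SD mouse 6. Genes of hippocampal principal neurons summed to 1639 to 1777 CPM over SD mice and 1688 to 1774 CPM over CTR mice, and in CTR mouse 5 their median was -0.07 on the log2 scale from each gene's median. Ependymal genes summed to 56.1 to 71.5 CPM in SD mice and 29.7 to 59.9 CPM in CTR mice, the 4 hypothalamic genes of the table to 3.30 to 20.8 CPM in SD mice and 1.94 to 3.68 CPM in CTR mice, and striatal genes to 248 to 286 CPM in SD mice and 235 to 246 CPM in CTR mice. The part of these tissues in the levels of the habenular genes was not tested.

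**Figure D5:**
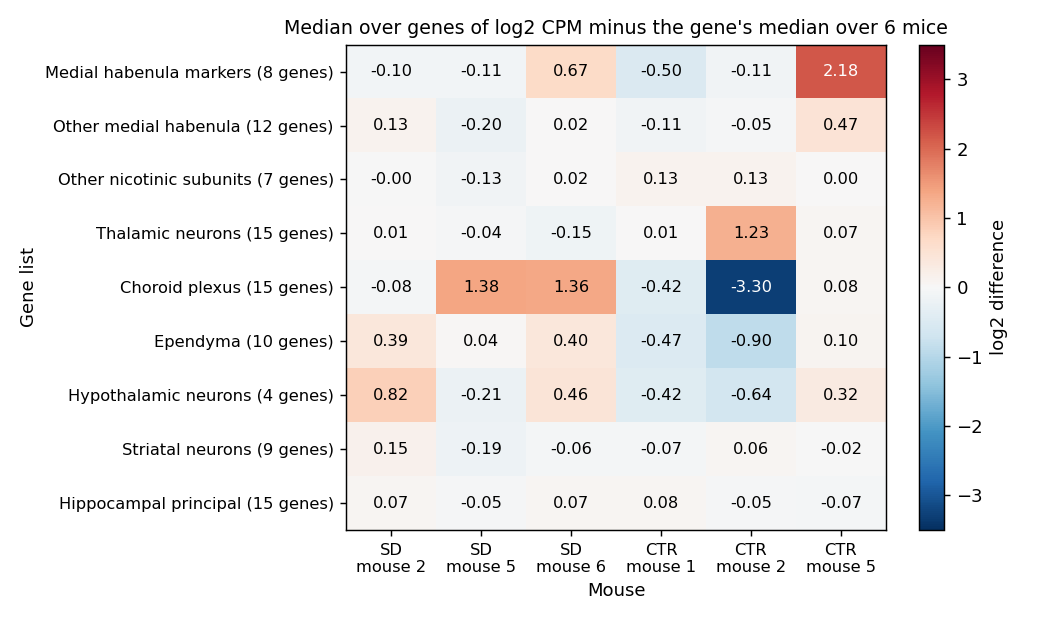
Median over the genes of each list of log2 CPM minus the gene's own median over the 6 mice, with mice in columns and lists in rows. The habenular markers stand at 2.18 in CTR mouse 5 and 0.67 in SD mouse 6, the thalamic genes at 1.23 in CTR mouse 2, the choroid plexus genes at 1.38 and 1.36 in SD mice 5 and 6, and the hippocampal genes between -0.07 and 0.08 in all mice.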

How the data were processed

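Whole-number counts per gene were used for 3 SD and 3 CTR mice. Before deposit the authors cleaned reads with Trim Galore, aligned them to mm10 using Hisat2 and obtained counts with featureCounts by strand, with multi-mapped reads kept. SAMtools and Picard are named in the submitters' processing notes. No version or annotation is given in those sources. The deposited table also holds a signal value, the mean of counts over size factors, and the authors' DESeq2 log2 fold changes, standard errors, Wald score and p-values, none of which was used. The other sheets were not used here.

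The filterByExpr function of edgeR 4.0.16 (R 4.3.3) kept 15345 of 15423 genes, which were scaled by TMM and tested by glmQLFTest, SD against CTR, without covariates. The test was checked on simulated counts that differed by group and held no outlying mouse, so the check does not cover a single high library. Standard errors are the log2 fold change over the square root of F. Log2 CPM used a prior count of 2. Exon lengths and coordinates are from GENCODE M21, of the same build as mm10, and upstream sequences from RefSeq.

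The markers and lists were chosen with earlier results of these data known. The named genes were the markers, called members and the 4 of highest mean of the habenular and nicotinic lists, the 10 most alike genes, and examples of highest mean from lists of thalamic, choroid plexus, ependymal, hypothalamic, striatal and hippocampal genes. Alternatives were DESeq2 1.42.0, size factors, no filter, an adjusted p, each mouse or marker left out, other scalings and a term for mouse number. Counts limit precision: the 6 low markers had 3 to 81 counts in mice other than CTR mouse 5.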

Additional observations from a re-analysis of the deposited data

How the results depend on the processing

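Over all genes the count called between the light cycles was 457, and 316 with DESeq2, 315 with the replicate block and 242 to 707 when a mouse was left out, lowest without SD mouse 6 and highest without CTR mouse 5. At an adjusted p under 0.05 edgeR called 0 genes, with 1277 at an unadjusted p under 0.05, and DESeq2 called 56. Of the other habenular genes 2 were called, 3 with the replicate block (Gpr139, Nr4a2 and Tcf7l2), 0 at an adjusted p under 0.05 and 1 to 5 when a mouse was left out: 1 without SD mouse 5 or CTR mouse 5, 4 without CTR mouse 1 and 5 without CTR mouse 2. With the block Tcf7l2 had a log2 difference of -1.77 and an edgeR adjusted p of 0.040, the lowest of its alternatives, which reached 0.95 without SD mouse 6. Mouse numbers 1 and 6 each occur in only 1 group, so a difference fitted with the block rests on SD mice 2 and 5 and CTR mice 2 and 5. CTR mouse 1, at 4.64 CPM of Tcf7l2, thus did not count towards it. Of the other nicotinic genes 0 were called, 1 with the replicate block, and 0 to 1 when a mouse was left out: Chrna4 with the block and without SD mouse 5, CTR mouse 1 or CTR mouse 5, and Chrna2 without SD mouse 2.

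The summed level of the markers in CTR mouse 5 over the median of the other mice was 2.51. It was 3.14 in raw counts, 4.63 as a geometric mean, 2.32 without Gpr151, 2.43 without Chrna3, 3.56 without Nwd2 and, added after the data were seen, 7.52 without Nwd2 and Lrrc55. When a mouse was left out it was 1.15 to 2.55, the lowest without CTR mouse 5, when SD mouse 6 became the highest. Other scalings kept CTR mouse 5 first.

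Numbers 2 and 5 occur in both groups, but nothing in the labels says that they pair mice. Deviations from the group means correlated at 0.21 for mice numbered 2 and 0.12 for mice numbered 5, over genes. SD mouse 6 and CTR mouse 1, whose numbers differ, reached 0.12 as well, and the other unlike pairs lay between -0.15 and 0.05. The 2 pairs of equal number cannot settle whether numbers pair mice. For single genes no sign of a called difference turned. The markers of lowest counts, such as Chrnb4 with 3 counts in CTR mouse 2, are limited by depth.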

Other observations

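Of 16 genes at least 2-fold higher in CTR mouse 5 than in any other mouse, 6 were habenular markers, 3 were other genes listed for the medial habenula and 7 were neither. These counts chose the markers, and the list was made with earlier results known, so nothing is read from their share of the 16. The 7 were Xist, Nhlh2, the unnamed gene A330015K06Rik, the synaptotagmin gene Syt15 and the Iroquois homeobox genes Irx1, Irx2 and Irx3, of which all but Xist and Nhlh2 are named after their values were seen. Iroquois factors pattern the thalamic region of the embryo and were in none of the lists. Irx2 had 2, 7 and 20 counts in SD mice 2, 5 and 6, against 4, 16 and 122 counts in CTR mice 1, 2 and 5. Irx1 had 14, 6 and 33 counts in SD mice 2, 5 and 6, against 11, 25 and 90 counts in CTR mice 1, 2 and 5. Irx3, at lower counts, had 18 in SD mouse 6 and 42 in CTR mouse 5. Unlike most of the markers, Irx1 and Irx2 were second highest in CTR mouse 2, at 1.03 and 0.660 CPM, the mouse in which the thalamic genes were high.

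DESeq2 gave no p-value for 5 of the 15423 genes, because the count of a single mouse had too large a Cook's distance. Gpr151 was among them, with its largest Cook's distance, 26.1, in CTR mouse 5. Of the 8 markers Gpr151 alone was left out in this way.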
